A study of Mus musculus with 4 samples.

Results

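Ribosome biogenesis and RNA polymerase I were followed through 42 genes in 2 mouse keratinocyte lines, MK2 and MK1. The genes were chosen by name, with earlier results of these data known. All 42 were found among the 23420 rows of the deposited count table. They encode RNA polymerase I subunits and factors (8 genes), the precursor rRNA itself (1 gene, Rn45s), proteins of small nucleolar ribonucleoproteins or snoRNPs (7), assembly factors of the small subunit (11) and of the large subunit (13), and the abundant nucleolar proteins Ncl and Npm1. The labels describe each group only as a mouse keratinocyte cell line, MK2 being cell line 2 and MK1 cell line 1, and each was sequenced as 2 biological replicate cultures of total RNA. They give no genotype, strain, treatment, age or passage, so that whether the groups differ in these cannot be told from the labels. Each group is a single line that stands for itself alone. The comparison was MK2 against MK1, and each log2 change is MK2 over MK1.

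RNA polymerase I transcribes the repeated rRNA genes in the nucleolus into one long precursor. Small nucleolar RNAs, held in snoRNPs, guide the methylation and pseudouridylation of that precursor, while assembly factors fold and cut it and fit the ribosomal proteins onto it, until the subunits leave for the cytoplasm. The pathway takes up a large share of the biosynthetic effort of growing cells, among them the basal keratinocytes that renew the epidermis, and the transcription factor MYC is known to act on many of its genes through the E-box CACGTG.

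The genes of the pathway sit under promoters of their own on many chromosomes. Promoter sequences from RefSeq (GRCm38.p6, the build that mm10 names) were matched by symbol for 36 of the 42 genes. The 250 bases before the start site are shown for 3 genes that hold the E-box there, Rrn3, Nop2 and Nmd3, and for the 2 protein-coding genes with the largest changes between the lines, Taf1d and Polr1e, which do not. Capitals mark CACGTG and the SP1 box GGGCGG, this one read on either strand.
Rrn3, chr16:13780449-13780698, plus strand: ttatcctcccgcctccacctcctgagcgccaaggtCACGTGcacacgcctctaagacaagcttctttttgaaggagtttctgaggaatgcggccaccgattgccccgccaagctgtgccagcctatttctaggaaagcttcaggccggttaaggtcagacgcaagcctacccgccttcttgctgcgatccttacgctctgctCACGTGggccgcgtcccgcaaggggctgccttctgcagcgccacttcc
Nop2, chr6:125131633-125131882, plus strand: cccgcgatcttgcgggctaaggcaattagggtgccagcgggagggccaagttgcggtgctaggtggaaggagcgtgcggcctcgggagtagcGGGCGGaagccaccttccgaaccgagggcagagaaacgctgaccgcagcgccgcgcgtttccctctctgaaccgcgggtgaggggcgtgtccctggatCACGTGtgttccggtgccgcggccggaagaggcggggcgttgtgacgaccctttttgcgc
Nmd3, chr3:69721805-69722054, plus strand: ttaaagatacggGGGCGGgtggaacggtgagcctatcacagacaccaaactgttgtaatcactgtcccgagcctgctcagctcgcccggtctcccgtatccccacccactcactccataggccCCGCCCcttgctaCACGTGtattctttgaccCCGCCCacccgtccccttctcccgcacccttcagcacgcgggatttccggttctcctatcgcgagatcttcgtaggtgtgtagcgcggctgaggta
Taf1d, chr9:15305964-15306213, plus strand: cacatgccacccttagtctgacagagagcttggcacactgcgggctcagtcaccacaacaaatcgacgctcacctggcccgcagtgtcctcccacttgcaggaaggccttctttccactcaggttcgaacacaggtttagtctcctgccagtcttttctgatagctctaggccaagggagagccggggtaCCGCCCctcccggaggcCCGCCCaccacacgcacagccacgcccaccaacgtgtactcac
Polr1e, chr4:45018359-45018608, plus strand: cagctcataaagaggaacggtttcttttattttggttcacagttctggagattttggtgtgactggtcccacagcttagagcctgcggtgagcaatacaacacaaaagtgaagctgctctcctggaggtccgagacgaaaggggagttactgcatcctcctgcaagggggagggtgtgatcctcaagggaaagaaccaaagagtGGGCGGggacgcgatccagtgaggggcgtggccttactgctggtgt

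In windows of 250 bases before to 50 bases after the start site, CACGTG, which reads the same on both strands, was found for 7 of 36 genes of the pathway. These were Nmd3, Nop2, Pes1, Rrn3, Tsr1, Utp20 and Wdr43. Counted by promoter, 15.9% of the pathway's 44 windows held it, against 7.15% of all 32851 promoters of that length and 9.90% of the 11827 promoters of tested genes. GGGCGG, on either strand, was in 70.5% of the pathway's windows, against 35.7% of all promoters and 63.0% of those of tested genes. TATAAA, on either strand, was in 2.27% of the pathway's windows, against 13.6% of all promoters and 7.07% of those of tested genes. The median log2 change was 0.74 over the 7 genes with the E-box and 0.72 over the 29 without it. By the test given below, 7 of the 7 and 24 of the 29 were called higher, beside 25.9% of all tested genes. The part of the E-box in these changes was not tested. The median GC content was 59.5% in the pathway's windows, against 52.7% in all promoters and 61.0% in those of tested genes.

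Libraries held 25237391 and 28601806 counts in MK2 and 30261111 and 26693849 counts in MK1. Levels are given as CPM, counts divided by TMM-scaled library size, which compare 1 gene between libraries. Each of the 42 genes was well counted, with at least 11.3 CPM in every library, and all passed the filter on low counts. Of 10 keratinocyte markers, 9 had 10 CPM or more in all 4 libraries, with summed levels of 24103 and 21031 CPM in MK2 against 25781 and 25644 CPM in MK1. Single markers differed by the test given below. Itga6 was called higher in MK2 (log2 change 0.83), Col17a1, Dsp and Perp lower (-1.06, -0.81 and -0.57), and 6 were not called. Of all tested genes, 25.9% were called higher and 28.6% lower. Krt15 had 27.9 and 0.247 CPM in the MK2 cultures, against 4.77 and 4.47 CPM in the MK1 cultures. Transcripts of other cells were low. All 8 listed B-lymphocyte markers summed to 0.318 and 0.353 CPM in MK2, against 15.8 and 16.2 CPM in MK1, and 10 other leukocyte markers to 2.42 and 3.49 CPM, against 22.0 and 19.0 CPM. Fibroblast markers summed to at most 3.95 CPM and melanocyte markers to at most 6.09 CPM in any library, and 5 endothelial markers to 25.4 and 27.4 CPM in MK2 against 17.8 and 14.9 CPM in MK1. The part of such cells in the results below was not tested.

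The 42 genes of the set were higher in MK2 almost throughout. Of the 42 genes, 35 were called higher in MK2 and 0 lower (threshold 0.05 on the p of edgeR's quasi-likelihood test, adjusted by Benjamini-Hochberg over all 12479 genes tested). That is 83.3% of the genes, while 25.9% of all tested genes were called higher and 28.6% lower. The set was chosen with earlier results of these data known, so that these shares describe it and are no test. The median log2 change of the 42 genes was 0.73, against -0.0098 for all tested genes, and all 42 estimates were positive. In 40 of the 42 genes (95.2%) both MK2 cultures lay above both MK1 cultures, as they did in 39.5% of all tested genes. A log2 change of 1 or more was reached by 9 genes, and 10 genes stayed under 0.5. Under 13 other settings of the analysis (12 for Rn45s), 27 of the 35 calls held in each, and in all of them 0 of the 42 genes were called lower. The 2 lines differ at 54.6% of tested genes, and a fold change between bulk cultures cannot tell more RNA per cell from another mix of cells.

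**Figure D1:**
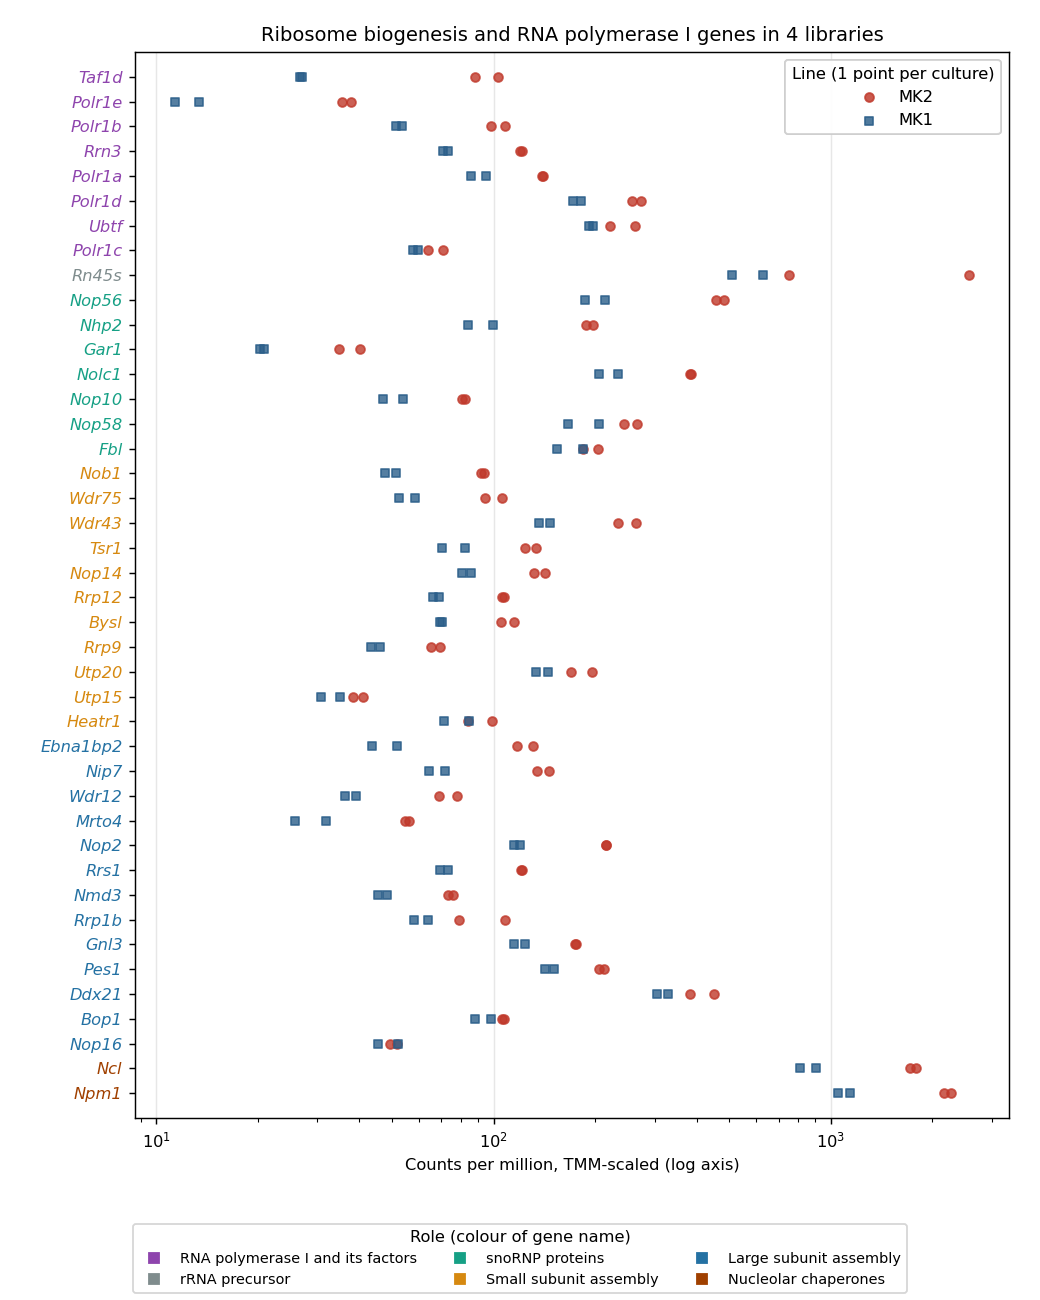
Levels of the 42 genes in CPM (log axis), 1 point per culture, with MK2 as circles and MK1 as squares, grouped by role and ordered within a role by the size of the change. The circles lie to the right of the squares in 40 of the 42 genes; Nop16 and Heatr1 overlap.

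The sum over the 41 protein-coding genes was 10050 and 9583 CPM in the MK2 cultures, against 5348 and 5878 CPM in the MK1 cultures. Both MK2 sums thus lay well above both MK1 sums. Npm1 and Ncl made up 4066 and 3882 CPM of this in MK2 and 1856 and 2045 CPM in MK1, and without them the other 39 genes still summed to 5984 and 5701 CPM in MK2, against 3492 and 3833 CPM in MK1. Between cultures of 1 line the net shift of the 41 genes was small. The median log2 difference, replicate 2 minus replicate 1, was -0.068 in MK2 and 0.12 in MK1. In this signed median, moves in opposite directions cancel, so that it does not measure how far single genes moved. Rrp1b had 108 and 79.0 CPM in the MK2 cultures and Nop58 167 and 205 CPM in the MK1 cultures, whereas Nop2 had 216 CPM in both MK2 cultures.

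The genes of RNA polymerase I and its factors in the set were unevenly higher. Of these 8 genes, 6 were called higher, with a median log2 change of 0.68. The 13 other genes of the polymerase and its factors, given further below, were mixed, with a median of 0.07. Taf1d (chromosome 9, 15306214 to 15316997, mm10), a subunit of the promoter selectivity factor that brings the polymerase to the rRNA gene, had 103 and 87.9 CPM in MK2, against 26.7 and 27.0 CPM in MK1. Its log2 change of 1.83 ± 0.12 (SE, as for each log2 change below) was the largest of all 42 genes (edgeR adjusted p = 8.16e-05). Parts of its exons, 84 and 70 bases, overlap the exons of a pair of genes on the other strand, 5830418K08Rik and 4931406C07Rik. The first of these had 104 CPM in MK2 and 49.8 CPM in MK1, and without strand in the counting such reads cannot be told apart. Polr1e (chromosome 4, 45018625 to 45033692), a subunit particular to RNA polymerase I, had 35.6 and 37.8 CPM in MK2, against 11.3 and 13.4 CPM in MK1, a log2 change of 1.57 ± 0.14 (edgeR adjusted p = 2.36e-04). The fitted fold changes were 3.56 for Taf1d and 2.97 for Polr1e, and in neither gene did the cultures of the lines overlap.

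The catalytic core rose less. Polr1b (chromosome 2, 129100996 to 129126595), the second-largest subunit, had 108 and 98.5 CPM in MK2, against 51.4 and 53.5 CPM in MK1, a log2 change of 0.98 ± 0.11 (edgeR adjusted p = 5.28e-04). Polr1a, the largest subunit, had a log2 change of 0.62 ± 0.11. Among the subunits shared with RNA polymerase III, Polr1d, the most abundant gene of the group per length, had 257 and 274 CPM in MK2 against 171 and 182 CPM in MK1 and rose by 0.59 ± 0.10. With MK1 replicate 1 left out its edgeR adjusted p was 0.0508. Its partner Polr1c was not called (log2 change 0.20 ± 0.11, edgeR adjusted p = 0.164). Per length, Polr1e stood at 0.531 and 0.561 of the TPM of Polr1a in the MK2 cultures, against 0.275 and 0.292 in the MK1 cultures, where TPM is the count per base of exon, scaled to the same total in each library. Polr1c went the other way relative to Polr1a, at 2.39 and 2.13 times its TPM in MK2 and 3.15 and 2.94 times in MK1. With 2 cultures a line an exact permutation test of such a ratio cannot give a two-sided p below 0.333, so that none is given.

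The initiation factors differed too. Rrn3, which joins the polymerase to the promoter-bound factors, rose by 0.74 ± 0.10 (edgeR adjusted p = 0.00119), with 119 and 122 CPM in MK2 against 71.0 and 73.4 CPM in MK1. Ubtf, the factor that covers active rRNA genes, had 262 and 222 CPM in MK2 against 191 and 198 CPM in MK1, and its log2 change of 0.32 ± 0.12 was not called (edgeR adjusted p = 0.0585). Its adjusted p was 0.0115 when MK2 replicate 2 was left out and 0.0475 in DESeq2, so that these settings called it.

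**Figure D2:**
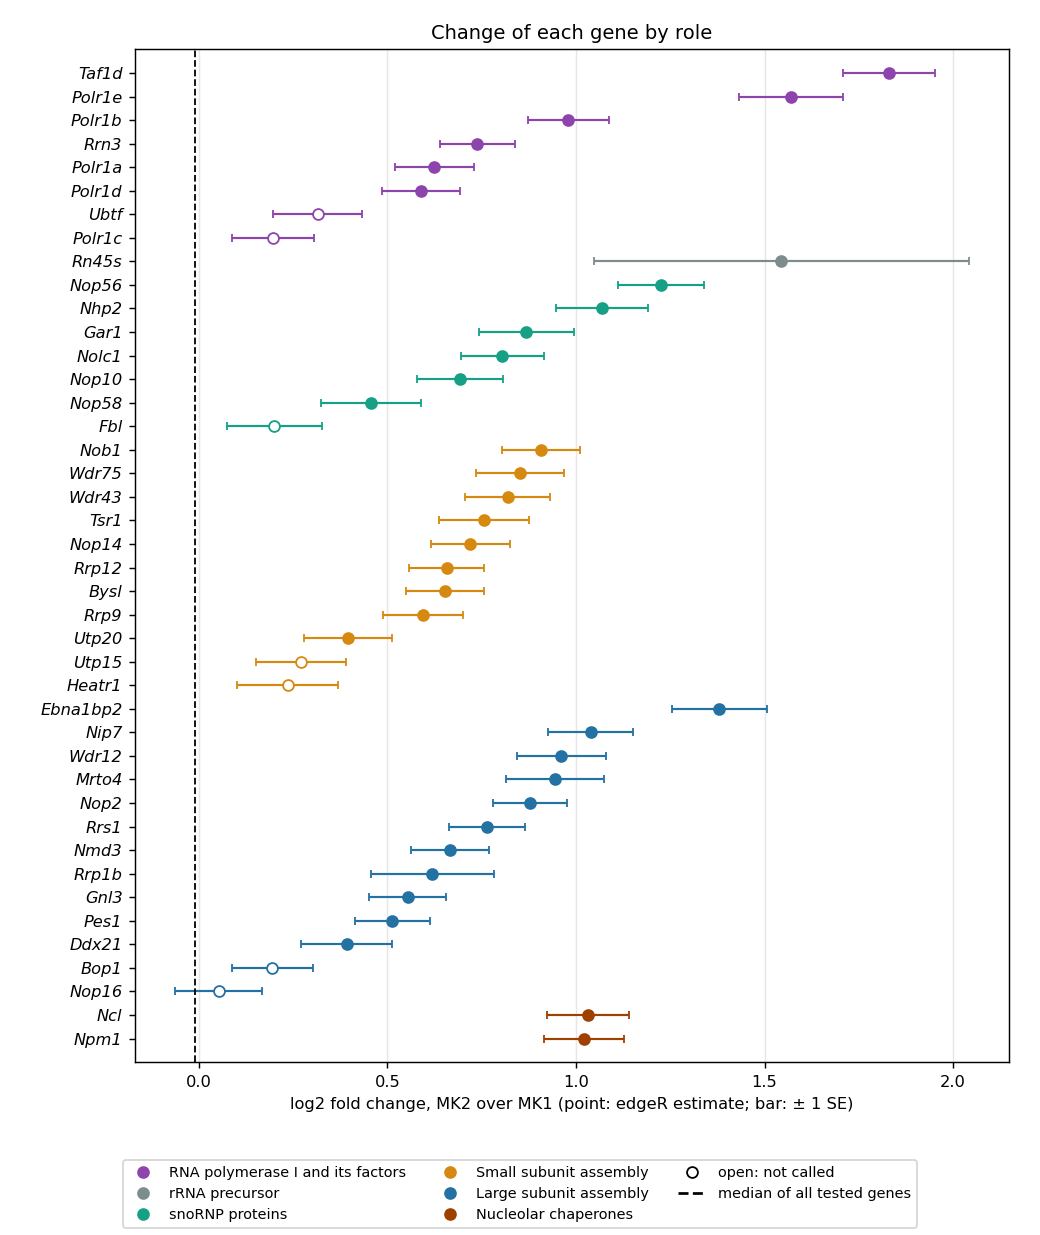
The log2 fold change of each of the 42 genes, MK2 over MK1, with its standard error as a bar, coloured by role. Filled points were called higher and open points were not called; the dashed line is the median of all tested genes, at -0.0098, and all 42 points lie to its right, Taf1d the farthest at 1.83.

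The level of Rn45s was uneven between cultures. Rn45s (chromosome 17, 39842997 to 39848829), the row for the rRNA precursor, had 2569 and 749 CPM in the MK2 cultures, against 507 and 630 CPM in the MK1 cultures. MK2 replicate 1 thus stood far above the other 3 libraries, and MK2 replicate 2 was little higher than MK1. The log2 change was 1.54 ± 0.50 (edgeR adjusted p = 0.0358). With MK2 replicate 1 left out the log2 change was 0.40 (adjusted p = 0.0430), and with MK2 replicate 2 left out it was 2.18 (adjusted p = 1.15e-05). Rn45s was not called when either MK1 library was left out (adjusted p = 0.197 for replicate 1 and 0.126 for replicate 2), nor in DESeq2 (adjusted p = 0.0995). Copies of the rRNA gene are near identical, so that its counts are uncertain. The level of Rn45s also depends on how much rRNA the library construction left. How rRNA was removed before sequencing is not given in the sources used here, so the row does not measure polymerase output alone. Other small non-coding RNAs with counts in the table were looked up after the Rn45s levels were seen, and were not of one pattern. Rmrp and Rpph1, RNAs of ribonucleoprotein enzymes, had most counts in MK2 replicate 1. Rmrp had 13 and 4 counts in the MK2 cultures, against 3 and 1 in the MK1 cultures, and Rpph1 had 15 and 6 counts, against 5 and 7. Terc, the telomerase RNA, had 4 and 5 counts in the MK2 cultures, against 7 and 8 in the MK1 cultures, and Rnu73b had 5 and 3 counts, against 4 and 7. Their part in the level of Rn45s was not tested. With MK2 replicate 1 left out, 33 of the 42 genes were called higher, and the median log2 change was 0.71.

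**Figure D3:**
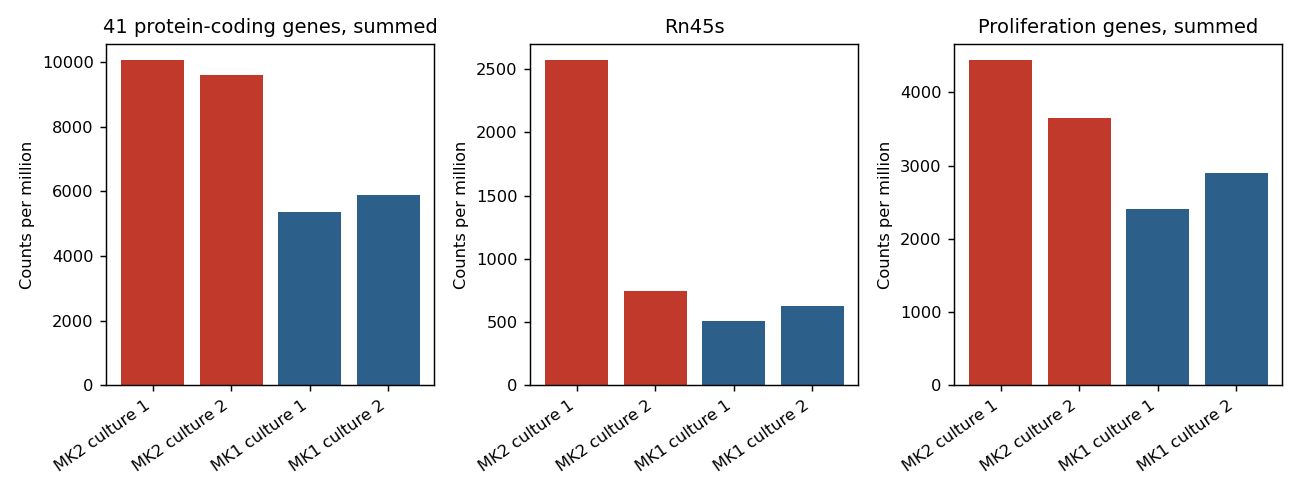
Summed CPM of the 41 protein-coding genes (left), CPM of Rn45s (middle) and summed CPM of 15 proliferation genes (right), 1 bar per culture, MK2 before MK1. The 41 genes reached 10050 and 9583 CPM in MK2 and 5348 and 5878 CPM in MK1, whereas Rn45s was high in 1 MK2 culture, at 2569 CPM.

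The snoRNP proteins were higher in MK2, with 6 of 7 called and a median log2 change of 0.80. Nop56 (chromosome 2, 130274412 to 130279313), a core protein of box C/D snoRNPs, which guide ribose methylation, had 457 and 481 CPM in MK2, against 187 and 215 CPM in MK1. Its log2 change of 1.23 ± 0.11 (edgeR adjusted p = 2.93e-04) compared with smaller estimates for its partners in the same particle. Nop58 rose by 0.46 ± 0.13 (edgeR adjusted p = 0.0239), and with MK1 replicate 1 left out the log2 change was 0.31 and was not called (adjusted p = 0.182). Fbl, the methyltransferase, had 204 and 184 CPM in MK2 against 154 and 184 CPM in MK1, the lower MK2 culture being level with the higher MK1 culture, and was not called (log2 change 0.20 ± 0.13, edgeR adjusted p = 0.215). Per length, Nop56 stood at 1.37 and 1.60 times the TPM of Fbl in the MK2 cultures, against 0.743 and 0.714 times in the MK1 cultures. The order of the pair was thus reversed between the lines. A pseudogene is named after Fbl, and reads shared with it are uncertain.

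Box H/ACA snoRNPs guide pseudouridylation, and their 3 core proteins in the set all rose. Nhp2 (chromosome 11, 51619773 to 51623714) had 198 and 188 CPM in MK2, against 84.0 and 99.7 CPM in MK1, a log2 change of 1.07 ± 0.12 (edgeR adjusted p = 6.02e-04). Gar1 and Nop10 had log2 changes of 0.87 ± 0.13 and 0.69 ± 0.11. Ratios within this particle moved less: Nhp2 stood at 6.24 and 6.82 times the TPM of Gar1 in MK2 and 5.25 and 6.07 times in MK1. Nolc1, a chaperone of both kinds of snoRNP, rose by 0.80 ± 0.11, with 382 and 385 CPM in MK2 and 205 and 234 CPM in MK1.

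Assembly of the small subunit begins on the growing transcript, and 9 of its 11 genes were called higher, with a median log2 change of 0.66. The early complex that loads onto the precursor was mixed. Wdr43, the most abundant of the group per length, had 264 and 234 CPM in MK2, against 136 and 147 CPM in MK1, a log2 change of 0.82 ± 0.11 (edgeR adjusted p = 0.00130), and Wdr75 rose by 0.85 ± 0.12. Utp15 and Heatr1, of the same early complex, were not called (log2 changes 0.27 ± 0.12 and 0.23 ± 0.13, edgeR adjusted p = 0.0943 and 0.180). Heatr1 overlapped between the lines, with 98.9 and 84.2 CPM in MK2 and 71.1 and 84.5 CPM in MK1. The processome proteins Nop14 and Rrp9 rose by 0.72 ± 0.11 and 0.59 ± 0.11. Utp20 had the smallest called change of the group, 0.39 ± 0.12 (edgeR adjusted p = 0.0263). For Utp20 the adjusted p was 0.183 and 0.0908 when MK1 replicate 1 and replicate 2 were left out, and 0.0689 when MK2 replicate 1 was.

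The genes of the set that act in the late steps of the small subunit were all called higher. Nob1 (chromosome 8, 107412489 to 107425038), the endonuclease that makes the final cut of its rRNA, had 93.9 and 91.7 CPM in MK2, against 47.6 and 51.3 CPM in MK1, and with a log2 change of 0.91 ± 0.10 (edgeR adjusted p = 6.38e-04) it was the largest in the group. Tsr1, Rrp12 and Bysl, which act on the nearly finished particle and in its export, rose by 0.76 ± 0.12, 0.66 ± 0.10 and 0.65 ± 0.10. Of the exon length of Tsr1, 34.2% overlaps Srr on the other strand, a gene with 5.92 CPM in MK2 and 7.28 CPM in MK1. Outside the set, the small subunit factors Ltv1 and Riok1 were not called, with log2 changes of -0.14 and -0.20. Riok2 and Pno1, also outside it, were called higher at 0.78 and 0.69.

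Among the 13 genes of large subunit assembly, 11 were called higher, with a median log2 change of 0.67. Ebna1bp2 (chromosome 4, 118620799 to 118627776), a nucleolar factor needed for the large subunit in yeast, had 130 and 117 CPM in MK2, against 43.6 and 51.6 CPM in MK1, a log2 change of 1.38 ± 0.13 (edgeR adjusted p = 2.71e-04). Exons of D4Ertd617e, with 0.185 CPM in MK2 and 0.0351 CPM in MK1, overlap 20.4% of its length on the same strand. Nip7 (chromosome 8, 107056877 to 107060928), a processing factor bound to precursor rRNA, had 146 and 134 CPM in MK2, against 64.3 and 72.0 CPM in MK1, a log2 change of 1.04 ± 0.11 (edgeR adjusted p = 5.20e-04). Mrto4, which holds the place of a stalk protein on the immature subunit, rose by 0.94 ± 0.13, and 2 pseudogenes named after it make its counts uncertain. Nop2, an rRNA cytosine methyltransferase, had 216 CPM in both MK2 cultures, against 115 and 119 CPM in the MK1 cultures, and rose by 0.88 ± 0.10.

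The 3 proteins of the PeBoW complex, which act together in processing of the large-subunit rRNA, did not change by the same amount. Wdr12 rose by 0.96 ± 0.12 (edgeR adjusted p = 8.04e-04) and Pes1 by 0.51 ± 0.10 (edgeR adjusted p = 0.00535), whereas Bop1 was not called (log2 change 0.19 ± 0.11, edgeR adjusted p = 0.164). Wdr12 stood at 0.540 and 0.470 of the TPM of Bop1 in the MK2 cultures, against 0.301 and 0.292 in the MK1 cultures. For Pes1 the adjusted p was 0.0693 when MK1 replicate 1 was left out.

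The remaining factors of the large subunit ranged widely. Rrs1, which helps to bring in the smallest rRNA in yeast, and Nmd3, the export adaptor, rose by 0.76 ± 0.10 and 0.67 ± 0.10. Gnl3, known as nucleostemin and the most abundant of the group per length in MK2, had 175 CPM in both MK2 cultures, against 115 and 124 CPM in the MK1 cultures. It rose by 0.55 ± 0.10 (edgeR adjusted p = 0.00413), but leaving out MK1 replicate 1 gave Gnl3 an adjusted p of 0.0587. Rrp1b, a nucleolar partner of protein phosphatase, was less even, with 108 and 79.0 CPM in MK2 against 58.2 and 63.8 CPM in MK1. Its log2 change of 0.62 ± 0.16 was called (edgeR adjusted p = 0.0171), but not when either MK1 library was left out (Rrp1b adjusted p = 0.129 for replicate 1 and 0.0728 for replicate 2). The helicase Ddx21 rose by 0.39 ± 0.12 (edgeR adjusted p = 0.0314), a call lost under 5 of 13 settings, with an adjusted p of up to 0.203 without MK1 replicate 1. Nop16 was the gene with the smallest estimate, with 51.7 and 49.2 CPM in MK2 and 45.3 and 52.1 CPM in MK1. Its cultures overlapped, and its log2 change of 0.05 ± 0.12 (edgeR adjusted p = 0.724) turned negative in 2 settings.

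Npm1 and Ncl, the abundant nucleolar chaperones that carry histones and ribosomal proteins and bind rRNA, rose together. Npm1 (chromosome 11, 33152498 to 33163206) had 2274 and 2170 CPM in MK2, against 1047 and 1141 CPM in MK1, a log2 change of 1.02 ± 0.11 (edgeR adjusted p = 4.27e-04). Ncl (chromosome 1, 86344719 to 86359455) had 1791 and 1713 CPM in MK2, against 809 and 904 CPM in MK1, a log2 change of 1.03 ± 0.11 (edgeR adjusted p = 4.63e-04). Per length, Npm1 was the most abundant of the 41 genes in both lines, with a mean of 2586 TPM in MK2 and 1332 TPM in MK1. Nop56 was next in MK2, at 495 TPM, against 221 TPM in MK1, where Fbl stood second at 305 TPM.

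**Figure D4:**
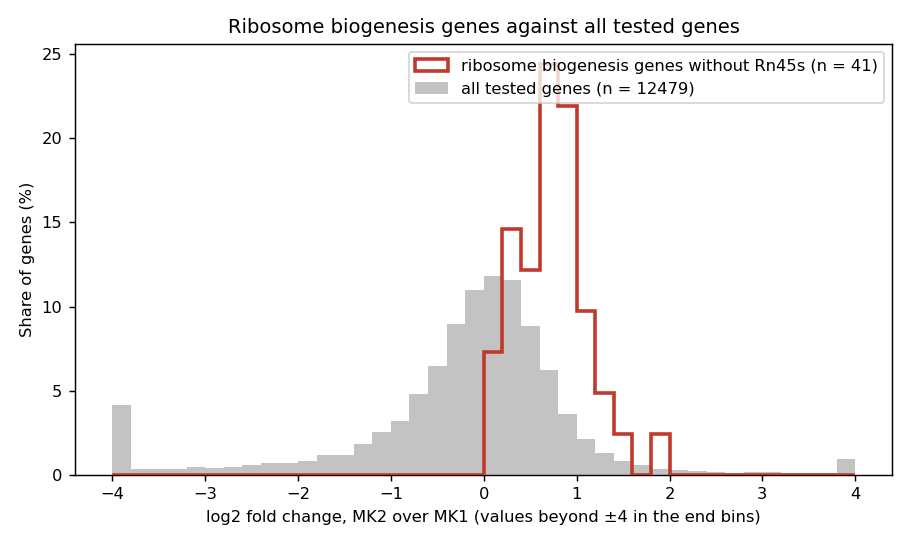
Share of genes (%) by log2 fold change, MK2 over MK1, in steps of 0.2, for the 41 protein-coding genes (line) and all 12479 tested genes (grey). The line lies to the right of 0 throughout, with a median of 0.72 over the 41 genes, and all of it lies within the range of the grey distribution.

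Levels of whole chromosomes differ between these lines, so each gene was also set against its own chromosome. The 41 protein-coding genes lie on 17 chromosomes, and all 41 had a higher log2 change than the median of the tested genes of their chromosome. The chromosome's median was highest on chromosome 4, at 0.37, where Polr1e, Ebna1bp2 and Mrto4 had a median of 1.38. It was lowest on chromosome 13, at -0.41, where Nop16, Heatr1 and Utp15, none of them called, had a median of 0.23. Relative to that chromosome they stood 0.46, 0.65 and 0.68 higher on the log2 scale. With the median of the chromosome subtracted from each gene, the median over the 42 genes was 0.71.

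**Figure D5:**
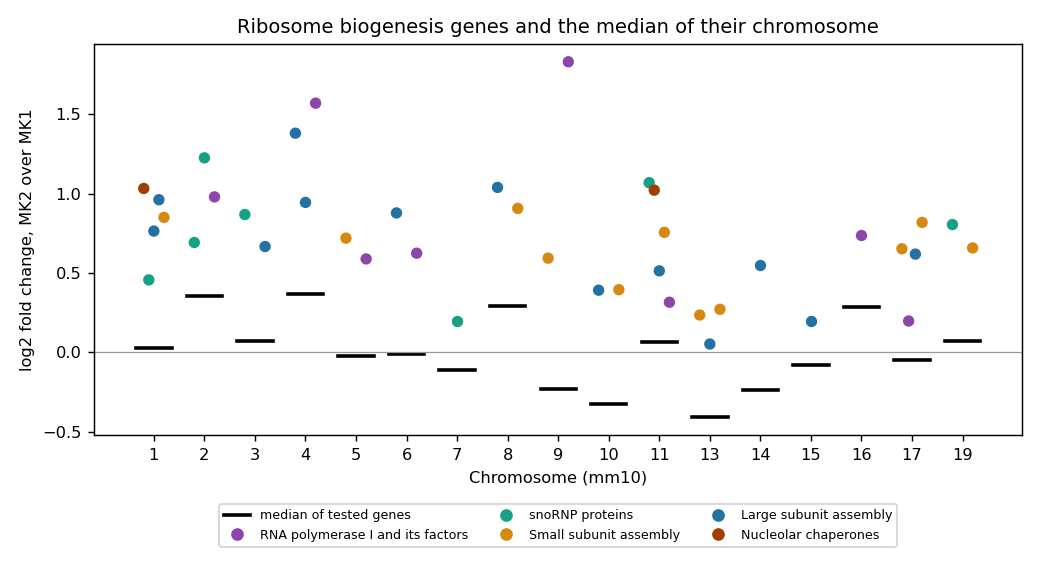
The log2 fold change of each of the 41 protein-coding genes (points, coloured by role) by chromosome, with a black bar at the median of all tested genes of that chromosome. All 41 points lie above their bar, and on chromosome 13, whose bar lies at -0.41, the 3 points lie between 0.05 and 0.27.

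Members of the set also host small nucleolar RNAs in their introns. In GENCODE M21, on the same assembly, 28 snoRNA genes lie within 7 of the genes on the same strand, 8 of them in Taf1d and 5 in Nop56, with the others in Nop58, Wdr43, Gnl3, Ncl and Tsr1. All 7 hosts were called higher, with a median log2 change of 0.82, against 0.68 over the 34 genes that host none, of which 27 were called. The counts here are of exons, so that they tell nothing of the hosted snoRNAs themselves. The table has 110 rows for snoRNAs, of which 45 had enough counts to be tested, and 13 of these were called higher and 1 lower. Their median log2 change was 0.64, and 37 of the 45 estimates were positive. Of all tested genes, 25.9% were called higher and 28.6% lower. Of 9 tested non-coding snoRNA host genes outside the set, 8 were called higher and 1 lower, with a median of 1.07. Snhg6 and Snhg4 rose by 1.72 ± 0.20 and 1.23 ± 0.14 (edgeR adjusted p = 6.79e-04 and 7.06e-04), Snhg8 by 1.14 ± 0.14 and Snhg7 by 1.13 ± 0.20. The host called lower was Gas5, with 114 and 120 CPM in MK2 against 142 and 149 CPM in MK1. Its log2 change was -0.31 ± 0.10 (edgeR adjusted p = 0.0355).

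Other genes of the pathway, listed by role, were mostly higher as well, beside the 25.9% of all tested genes. Of 35 other small subunit factors, 28 were called higher and 1 lower, with a median log2 change of 0.58. They were led by the processome proteins Cirh1a, Wdr36, Nol6 and Wdr46, at 1.09 ± 0.11, 1.08 ± 0.11, 1.04 ± 0.11 and 0.85 ± 0.10. Of 41 other large subunit factors, 26 were called higher and 3 lower, with a median of 0.48. Mdn1, a very large ATPase that strips factors from the particle, rose by 1.30 ± 0.18, Ddx31, a helicase, by 1.05 ± 0.12 and Surf6 by 1.03 ± 0.12. Las1l, part of the nuclease that cuts the spacer of the large-subunit precursor, fell, with 69.2 and 82.5 CPM in MK2 against 187 and 149 CPM in MK1 and a log2 change of -1.14 ± 0.15 (edgeR adjusted p = 0.00109). It lies on chromosome X. Rrp1 was also called lower, with 232 and 225 CPM in MK2 against 322 and 294 CPM in MK1. Its log2 change was -0.43 ± 0.10 (edgeR adjusted p = 0.0126). Nsa2 was the remaining large subunit factor called lower, at -0.31 ± 0.10 (edgeR adjusted p = 0.0392). Of 10 other snoRNP and assembly proteins, 7 were called higher and 0 lower, among them Znhit6, Ruvbl1, Naf1 and Znhit3 at 0.63 to 0.70, the last of these not called without MK1 replicate 1. Of 14 nuclear exosome genes, which trim precursor rRNA, 6 were called higher and 0 lower, led by Exosc2 at 1.16 ± 0.14, with a median of 0.23. Exosc3, Exosc8 and Exosc6 followed at 0.74 ± 0.16, 0.72 ± 0.19 and 0.62 ± 0.12, and none of these 3 was called when MK1 replicate 1 was left out (edgeR adjusted p = 0.0751, 0.119 and 0.0586).

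The other genes of RNA polymerase I were mixed. Of 13, 5 were called higher and 2 lower, beside 25.9% and 28.6% of all tested genes. Their median log2 change was 0.07, near that of all genes. Polr2h, Polr2k and Polr2l, subunits shared by the nuclear polymerases, had log2 changes of 0.96 ± 0.11, 0.69 ± 0.13 and 0.54 ± 0.15. Polr2e and Polr2f, also shared, were not called, at -0.13 and 0.11. For Polr2l the adjusted p was 0.152 and 0.0686 when MK1 replicate 1 and replicate 2 were left out and 0.0566 when MK2 replicate 2 was, and for Polr2k it was 0.0508 when MK1 replicate 1 was. Baz2a, a subunit of a complex that silences rRNA genes, fell, with 117 and 102 CPM in MK2 against 201 and 176 CPM in MK1 and a log2 change of -0.78 ± 0.12 (edgeR adjusted p = 0.00222). The other gene called lower was Znrd1, at -0.43 ± 0.15 (edgeR adjusted p = 0.0451). Twistnb, Taf1a and Taf1b were not called, at 0.0087, -0.034 and -0.22, whereas Taf1c was called higher at 0.40 ± 0.14. The summed level of the 13 genes was 670 and 677 CPM in MK2, against 670 and 691 CPM in MK1.

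Myc, which encodes the transcription factor tied to this pathway, had 176 and 197 CPM in MK2, against 152 and 148 CPM in MK1. The difference was small, a log2 change of 0.31 ± 0.11 at the edge of the threshold (edgeR adjusted p = 0.0424), and the call ended in 6 settings, with an adjusted p of up to 0.199 without MK1 replicate 2. Of 11 tested genes of the MYC network, 2 were called higher and 4 lower, with a median of -0.24. These counts stand beside 25.9% of all tested genes called higher and 28.6% lower. Mycn fell, with 5.96 and 3.81 CPM in MK2 against 17.1 and 18.5 CPM in MK1 and a log2 change of -1.87 ± 0.23 (edgeR adjusted p = 8.32e-04). Mxd4 and Mxd3, which compete with MYC for its partner, had log2 changes of -2.30 ± 0.18 and -1.37 ± 0.21, whereas Mxi1, of the same family, rose by 0.69 ± 0.13. Max, that shared partner, named after its value was seen, fell by 0.68 ± 0.10.

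Proliferation genes were also higher in MK2. Of 15 listed, 11 were called higher and 0 lower, beside 25.9% and 28.6% of all tested genes. Their median log2 change was 0.65, and their summed level was 4439 and 3652 CPM in MK2, against 2411 and 2898 CPM in MK1. Mki67, a marker of cycling cells, had 684 and 382 CPM in MK2 against 355 and 437 CPM in MK1, with overlapping cultures (edgeR adjusted p = 0.202). Their part in the level of the ribosome biogenesis genes was not tested.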

How the data were processed

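RNA of 2 mouse keratinocyte lines was sequenced as 2 cultures of each. The deposited values are whole-number counts of reads for each gene, with no scaling by the authors. According to the header of the table (per the file headers), TopHat alignments were counted over mm10 exons with featureCounts 1.4.6-p4 with no option for strand, pairs or multiple alignments. DESeq2 1.10.1, featureCounts 1.5.0, Bowtie2 2.2.6 and TopHat2 2.0.13 are named per the submitters' processing notes. Overlapping genes, antisense partners and near-identical copies are therefore uncertain. Columns were matched to samples by titles, which name MK1 and MK2 as the columns do. The command line in the header names the alignments MK and MKU instead, and every direction given here rests on the column names.

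Genes were filtered with filterByExpr (minimum count 10), scaled with TMM and tested, MK2 against MK1, with edgeR 4.0.16 in R 4.3.3 (quasi-likelihood F test, Benjamini-Hochberg adjustment, threshold 0.05, two-sided). SE is the size of the log2 change over the square root of F. On simulated data for the comparison MK2 against MK1 (12479 genes), the test recovered 98% of 100 genes with a 2-fold change and 100% of 100 with a 4-fold change, and it called 0.0814% of 12279 genes left as they were. Few genes were changed there, up or down at random, whereas 54.6% of tested genes were called in the data. These rates therefore hold only for the simulated setting. Replicates differed beyond counting noise (median chi-square per gene 4.28 in MK2 and 2.87 in MK1). Each culture is 1 sample of its line, so p-values measure the spread between these cultures only.

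Members and lists were chosen with earlier results of these data known. Of 200 listed symbols, 3 were not found. All 42 genes were named, with values per culture for the 10 largest changes, Rn45s, Myc and the most abundant and most changed gene of each role, and for genes whose calls or cultures varied. From each other list of the pathway up to 4 called genes with the largest changes were named. Further genes of the lists were named after their values had been seen. The deposited table gave positions, and promoters came from RefSeq. Alternatives covered scaling, filters, DESeq2 1.42.0, each library left out and the replicate number as a block.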

Additional observations from a re-analysis of the deposited data

How the results depend on the processing

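Of the 42 genes, 34 to 36 were called higher under each change of scaling, filter or test and with the crossed block, 32 with the replicate block, and 27 to 36 with a library left out, against 35 as reported. None was called lower under any setting (0 genes in edgeR and in DESeq2; in the fit as reported all 42 estimates were positive, so that 0 were lower without adjustment too). The median log2 change was 0.67 with upper-quartile scaling, and lay between 0.70 and 0.77 with a library left out. Upper-quartile scaling moved the median of all tested genes to -0.067. The count of called genes overall was 6810, and 3716 to 6847 with a library left out, the lowest without MK1 replicate 1 and 4369 without MK1 replicate 2. The cause was not tested.

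Rn45s had a log2 change of 1.54 in DESeq2 (adjusted p = 0.0995) and 1.30 with the replicate block (adjusted p = 0.0851), neither called, and 0.40 to 2.18 with a library left out. With the replicate block, Utp20, Ddx21 and Myc kept log2 changes of 0.39, 0.39 and 0.31 but were not called (adjusted p = 0.0561, 0.0661 and 0.0771). Nop16 turned negative with upper-quartile scaling (-0.0054) and without MK1 replicate 1 (-0.050 to 0.15 over the libraries left out). Leaving Rn45s out of the library sizes gave 34 genes higher of the 41 left. Deviations of same-numbered replicates were only weakly opposed across genes (correlation -0.151). A crossed replicate block was added after the data had been seen, with 36 of the 42 genes and 7454 genes in all called. The numbers pair no samples by design. A line with 1 library left was assumed to vary like the other.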
